A study of Mus musculus with 10 samples.

Results

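Collagens and laminins, the chains that build fibrils and basement membranes around cells, were followed as 55 genes in the lumbar spinal cord of SOD1G86R mice, a transgenic model of amyotrophic lateral sclerosis, and of their wild type controls (WT). The members are the 44 collagen genes and 11 laminin genes of the count table, taken by name: protein-coding symbols made of Col, a number, the letter a and a number, or starting with Lama, Lamb or Lamc and a digit, with at least 10 counts summed over the 10 libraries. They stand among 32506 genes of the table, and no gene of such a name fell under the minimum. Both groups held 5 FVB/N females killed at the age of 95 days, and each mouse gave 1 library. SOD1G86R mice carried a transgene for the mutant superoxide dismutase and were bred from transgenic fathers and non-transgenic mothers, whereas WT mice lacked the transgene and were matched for age and litter. The cord was taken after perfusion with saline and holds every cell type of that segment, so that fewer cells of a type and less RNA per cell cannot be told apart.

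Collagens are trimers wound into a triple helix, in which glycine recurs at a fixed interval. Fibrillar collagens form the fibres of connective tissue, FACIT collagens (fibril-associated collagens with interrupted triple helices) sit on those fibres, and type IV collagens form the sheet of basement membranes. Laminins are cross-shaped trimers of an alpha, a beta and a gamma chain that assemble into the other network of basement membranes and bind integrins and dystroglycan on cells. In the spinal cord both families lie mainly in the meninges, around blood vessels and in the nerve roots, and the parenchyma between neurons and glia holds few fibres.

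The letters of the genes separate the families by the triple helix. In GENCODE M21 transcripts the longest unbroken run of triplets that start with a glycine codon was 23 to 344 triplets over the 44 collagens, with a median of 58.5 triplets. In the 11 laminins it was 2 or 3 triplets. An exon of 54 bases was found in the coding part of 40 collagens and of 0 laminins. One such exon is shown for each of 4 collagens to which the results below return, a pair of fibrillar chains (Col1a2 and Col2a1) and a pair of FACIT chains (Col12a1 and Col16a1). Capitals mark the glycine codons. In GRCm38 the exons are exon 8 of Col1a2 on the plus strand of chr6:4515481-4515534, exon 10 of Col2a1 on the minus strand of chr15:97996489-97996542, exon 57 of Col12a1 on the minus strand of chr9:79612916-79612969 and exon 49 of Col16a1 on the plus strand of chr4:130083122-130083175.
Col1a2: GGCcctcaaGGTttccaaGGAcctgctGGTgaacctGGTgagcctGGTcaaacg
Col2a1: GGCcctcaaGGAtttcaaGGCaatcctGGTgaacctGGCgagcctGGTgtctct
Col12a1: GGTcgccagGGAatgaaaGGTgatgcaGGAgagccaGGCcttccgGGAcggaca
Col16a1: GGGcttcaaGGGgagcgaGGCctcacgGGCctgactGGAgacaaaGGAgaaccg
The fibrillar chains keep this pattern for most of the protein, with a longest run of 339 triplets in both Col1a2 (1372 residues) and Col2a1 (1487 residues). The FACIT chains interrupt it: the longest run was 32 triplets in Col12a1 (3065 residues) and 52 triplets in Col16a1 (1580 residues).

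Library totals were 29333590 to 46003999 counts in WT and 31494723 to 37080445 counts in SOD1G86R mice. Levels are given as CPM, a gene's counts relative to the TMM-scaled library total, and as RPKM, the same value per 1000 bases of exon, where genes are compared with each other. Sod1 read 127 to 209.8 CPM in WT and 3918 to 6415 CPM in SOD1G86R mice, so every library matched its genotype. SOD1G86R replicate 4 stood apart from the other SOD1G86R mice. Scn10a, a sodium channel of sensory ganglia, was 20.7 CPM there and at most 0.0651 CPM in every other library, and the summed level of 10 microglial markers was 522 CPM there against 749 to 982 CPM in the other SOD1G86R mice and 394 to 507 CPM in WT. Results are therefore given with and without that mouse. The count of 11 marker lists past the test below was 4 of 10 for microglia, 1 of 12 for pericytes and smooth muscle (Tagln, log2 fold change 1.31, edgeR adjusted p = 0.00448), 1 of 8 for motor neurons (Ret, 0.42, edgeR adjusted p = 0.00448) and 0 for Schwann cells, sensory ganglion neurons, fibroblasts and meninges, endothelium, astrocytes, oligodendrocytes, ependyma and skeletal muscle. Over all genes 0.866% passed that test as higher. At an unadjusted p under 0.05 edgeR had 6 of 14 endothelial, 6 of 12 pericyte and smooth muscle, 4 of 18 fibroblast and meningeal and 4 of 9 astrocytic markers higher, against 10.8% of all genes. Lower at that level were 1 astrocytic, 1 oligodendrocyte, 1 motor neuron and 2 ependymal markers, against 6.33% of all genes. The median log2 fold change was 0.03 over the astrocytic and -0.07 over the motor neuron markers. DESeq2 called 9 microglial, 4 pericyte and smooth muscle, 3 astrocytic, 1 fibroblast and 1 motor neuron marker higher, against 4.15% of all genes. Limma voom called 1 motor neuron marker higher and 0 in every other marker list, that of microglia included. Without replicate 4 the lists had 9 microglial, 3 astrocytic, 2 fibroblast and meningeal, 1 pericyte, 1 Schwann cell and 1 motor neuron marker higher, against 4.55% of all genes. In that fit 1 sensory ganglion marker was lower, against 0.5% of all genes. The 14 endothelial markers summed to 281 to 448 CPM in WT and 390 to 458 CPM in SOD1G86R mice, and the 12 pericyte and smooth muscle markers to 171 to 311 CPM and 256 to 331 CPM.

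In WT cords the members spanned the range from traces to moderate levels. Col11a2, a minor chain of cartilage-type fibrils, was the most abundant per length at 11.8 ± 1.56 RPKM (SD, n = 5), at percentile 75.5 of the 16974 genes tested. It was followed by the FACIT chain Col16a1 at 7.36 ± 1.70 RPKM (SD, n = 5) and by the basement membrane chain Col4a2 at 5.87 ± 1.65 RPKM (SD, n = 5). Next came the laminin chain Lamb2 at 5.48 ± 0.324 RPKM (SD, n = 5), the type IX chain Col9a3 at 5.28 RPKM, Lamc1 at 4.77 RPKM, the transmembrane collagen Col23a1 at 4.27 RPKM, Col9a2 at 3.99 RPKM, Col4a1 at 3.97 RPKM and Col6a1 at 2.99 RPKM. Neighbours in this order had overlapping WT ranges. Some close ranks that were not neighbours did not overlap, such as Col11a2 (lowest WT mouse 10.1 RPKM) and Col4a2 (highest 8.56 RPKM). Within each WT mouse Col11a2 also lay above Col16a1. The 10 leading members held 64.0 to 67.9% of the summed member RPKM of a WT mouse. In all, 21 members reached a mean of 1 RPKM in WT and 34 stayed below it.

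**Figure D1:**
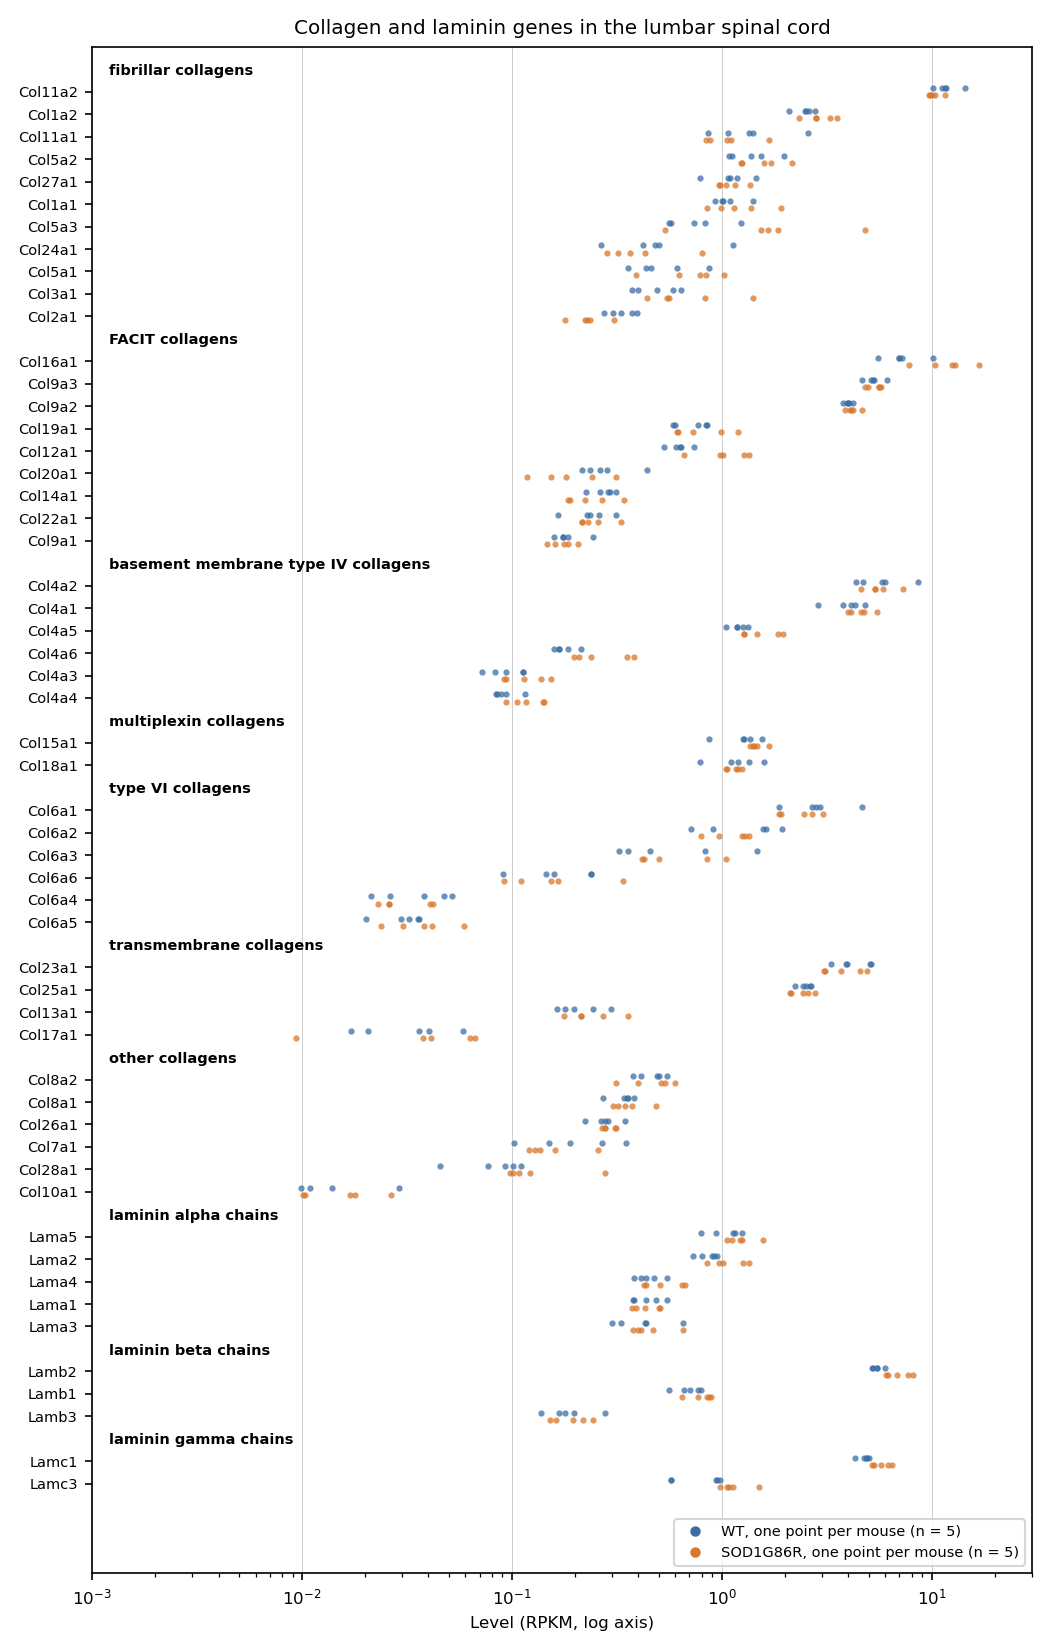
Level of 54 of the 55 genes in each mouse (RPKM on a log axis), grouped by class and ordered by the WT mean, with WT in blue and SOD1G86R in orange; zero values (Col10a1 in WT replicate 2) are not drawn. Most genes lie below 1 RPKM, Col11a2 and Col16a1 lead, and the 2 groups overlap in all but Lamb2 and Lamc1 among the genes tested.

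The level was uneven within each class. Of the fibrillar chains, Col1a2 reached 2.49 RPKM in WT, Col1a1, its partner in type I collagen, 1.09 RPKM, and Col2a1, the main chain of cartilage, 0.334 RPKM. Of the type IV chains, Col4a1 and Col4a2, the pair of most basement membranes, led over Col4a5 at 1.20 RPKM, whereas Col4a3, Col4a4 and Col4a6 were each below 0.2 RPKM in the WT mean. Of the laminins, Lamb2 and Lamc1 were well above every alpha chain: Lama5 at 1.05 RPKM, Lama2 at 0.858 RPKM, Lama4 at 0.449 RPKM, Lama1 at 0.445 RPKM and Lama3 at 0.429 RPKM. Lamb3, a chain of an epithelial laminin like Lama3, was lower still, at 0.192 RPKM. Col10a1, the collagen of hypertrophic cartilage, had 16 counts and Col17a1, a collagen of epithelial adhesion, 81 counts over the 10 libraries, and these were the 2 members removed by the filter on low counts.

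The members varied more between WT mice than most genes did. Over the 45 members with a WT mean of 1 CPM or more the median coefficient of variation was 18.2%, against 7.67% over 14735 genes at that level. The variation had a shared direction: WT replicate 1 was the highest WT mouse in 32 of 53 members tested (60.4%, against 28.6% of all genes tested), and WT replicate 2 was the lowest in 33 (62.3%, against 25.8%) and the highest in 0 (against 28%). Among SOD1G86R mice replicate 3 was the lowest in 22 members (41.5%, against 23.8%) and replicate 5 the highest in 20 (37.7%, against 24.3%). Collagens and laminins are long transcripts, with a median exon length of 8039 bases over the 53, and long genes of any kind moved the same way in part. Among 5 equal classes of all genes by exon length, in the class with the longest exons (median 9554 bases), WT replicate 2 was the lowest WT mouse in 49.4% and WT replicate 1 the highest in 41.2%, against 13.8 and 17.7% in the class with the shortest. The median log2 deviation of the members from the mean of the 10 mice was -0.36 in WT replicate 2, where that of the longest class was -0.10, and 0.15 in WT replicate 1, where it was 0.02. Members and longest class also shared a sign in SOD1G86R replicates 3 (-0.10 and -0.10) and 5 (0.19 and 0.09). Smaller shared shifts were seen in WT replicate 3 and SOD1G86R replicate 2. The sign differed in SOD1G86R replicates 1 (0.15 and -0.003) and 4 (-0.05 and 0.08) and in WT replicates 4 (-0.08 and 0.01) and 5 (0.03 and -0.02). The part of transcript length or RNA integrity in these deviations was not tested beyond the fit with the length trend removed, given below.

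**Figure D2:**
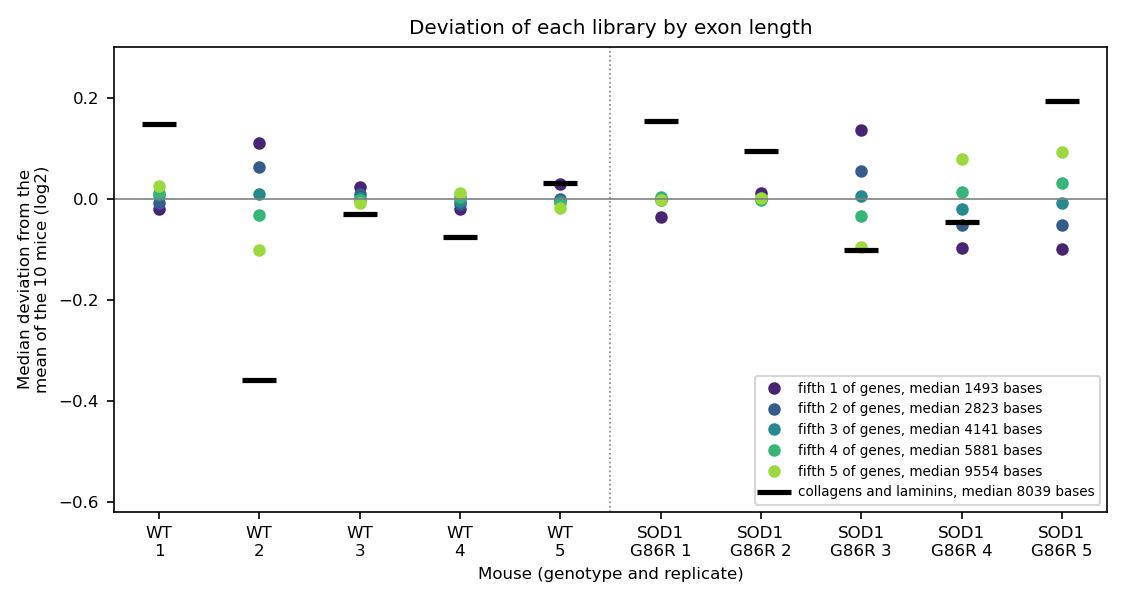
Median log2 deviation of each library from the mean of the 10 mice, for 5 equal classes of all genes by exon length (coloured points) and for the 53 collagens and laminins tested (black bars). Long genes lie low in WT replicate 2 and SOD1G86R replicate 3 and high in SOD1G86R replicates 4 and 5. The collagens and laminins lie further from 0 than any class in every library but SOD1G86R replicates 3 and 4.

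The comparison of genotypes asks which of these matrix genes differ at the symptomatic stage of the disease. With all 10 mice, 0 of the 53 members tested passed edgeR's quasi-likelihood test at an adjusted p under 0.01, in a table where 1.12% of genes passed (0.866% higher, 0.253% lower). At an unadjusted p under 0.05 edgeR had 11 members higher in SOD1G86R mice (20.8%, against 10.8% of all genes) and 2 lower (3.77%, against 6.33%). At an adjusted p under 0.05 it had 3 higher, Col12a1, Lamb2 and Lamc1 (5.66%, against 3.85%), and the same 3 were called by DESeq2 at 0.01 (against 4.15% of genes called higher), while limma voom called 0 (against 0.348% of genes in either direction). The log2 fold change was positive in 34 members (64.2%, against 47.7% of all genes tested), with a median of 0.11 over the members, 0.06 over the 42 collagens tested and 0.25 over the 11 laminins, against -0.01 over all genes. Of the members, 15 lay within 0.1 of no change on the log2 scale (28.3%, against 50.6% of all genes), 8 were more than 0.5 higher (15.1%, against 6.3%) and 2 more than 0.5 lower (3.77%, against 1.78%).

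Leaving out SOD1G86R replicate 4 changed the calls. In that fit 3 members passed the test as higher, Col12a1 and Lamb2 among them, which is 5.66% of the members against 4.55% of all genes called higher there. The median over the members was 0.11 again. Without that mouse DESeq2 called 6 members higher (11.3%, against 5.95%) and 1 lower (1.89%, against 1.23%), with Col12a1, Col16a1, Col5a3, Lamb2 and Lamc1 among the higher and Col2a1 the lower, and limma voom called Col12a1 and Col16a1 (3.77%, against 4.18% of genes called higher). With the trend of each library with exon length removed, 0 members passed at 0.01, against 1.28% of genes, and Col12a1, Lamb2 and Lamc1 had adjusted p of 0.0340, 0.0208 and 0.0242 by edgeR. With all 10 mice the groups did not overlap in 2 members, Lamb2 and Lamc1, both higher (3.77%, against 3.09% of all genes). Without replicate 4 they did not overlap in 7 higher members (13.2%, against 7.55%) and 1 lower (1.89%, against 3.66%).

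**Figure D3:**
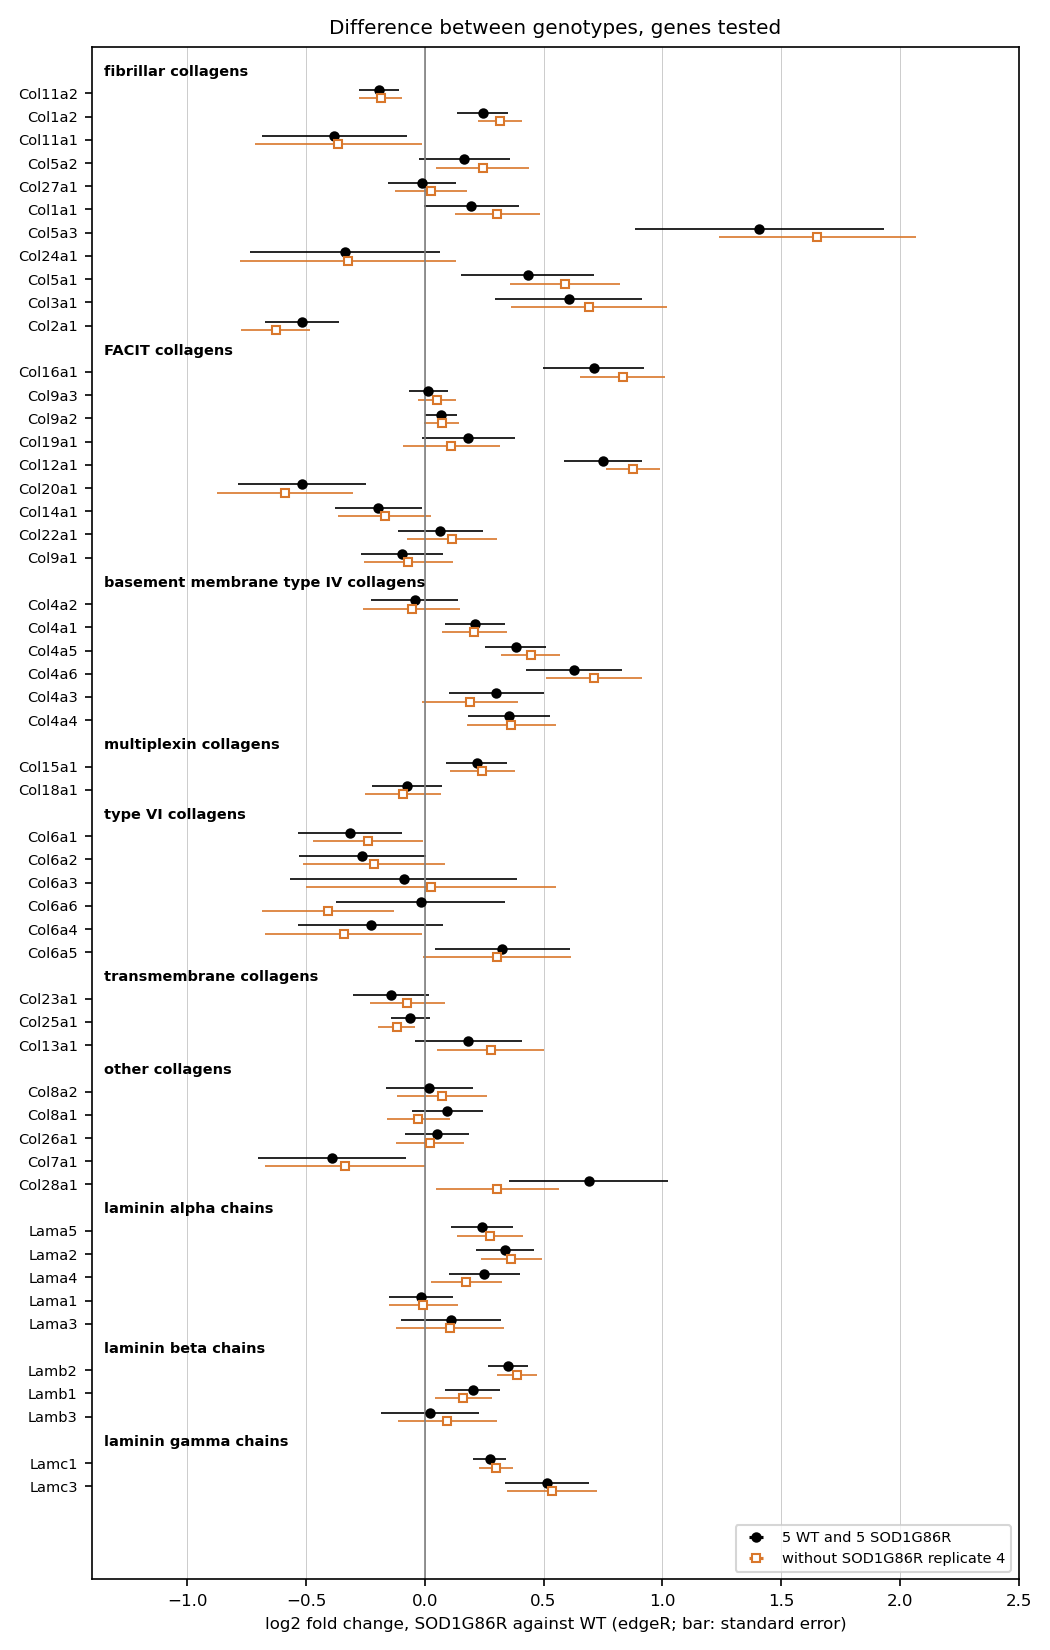
log2 fold change of SOD1G86R against WT for 52 of the 53 genes tested, with its standard error, from edgeR with all 10 mice (black circles) and without SOD1G86R replicate 4 (orange squares). Col5a3 lies furthest right with a wide error, Lamb2 and Lamc1 lie between 0.27 and 0.39 with narrow ones, and Col2a1 and Col20a1 lie furthest left.

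Among laminins the chains with the smallest p were Lamb2 and Lamc1, the beta and gamma chains of the laminins of vessels and pia. Lamb2 (ENSMUSG00000052911, chr9:108479736-108490530 in GRCm38) read 36.6, 31.5, 33.2, 32.0 and 33.2 CPM in WT replicates 1 to 5 and 49.4, 41.6, 36.9, 37.7 and 46.6 CPM in SOD1G86R replicates 1 to 5. Every SOD1G86R mouse lay above every WT mouse, replicate 3 by the smallest margin. The log2 fold change was 0.35 (SE, the standard error, 0.08; edgeR adjusted p = 0.0303), and without replicate 4 it was 0.39 (edgeR adjusted p = 0.00918). The exact permutation test over all assignments of the mice gave p = 0.00794, the smallest it can give, and 0.161 after adjustment over all genes tested. Every gene at that p, Lamc1 among them, had this adjusted value, the smallest over all genes, so that no gene could pass 0.01.

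Lamc1 (ENSMUSG00000026478, chr1:153218922-153332786), the gamma chain shared by most laminins, read 40.1, 35.6, 39.5, 41.6 and 40.4 CPM in WT and 50.9, 47.2, 43.1, 44.0 and 53.2 CPM in SOD1G86R mice. Here too the groups did not overlap. The endothelial and pericyte markers also had higher lowest and highest sums in SOD1G86R mice, as given above. By mouse the order differed. SOD1G86R replicate 5, the highest in Lamc1, had the lowest sums of its group, 390 and 256 CPM. SOD1G86R replicate 4, at 44.0 CPM of Lamc1, had the highest endothelial sum, 458 CPM. The part of these cells in Lamb2 and Lamc1 was not tested. The log2 fold change of Lamc1 was 0.27 (SE 0.07, edgeR adjusted p = 0.0407). The difference did not pass without replicate 4 either (edgeR adjusted p = 0.0179), and DESeq2 with all mice gave an adjusted p of 0.00552. The ratio of Lamc1 to Lamb2 per length was 0.872 ± 0.0589 (SD, n = 5) in WT and 0.830 ± 0.0419 (SD, n = 5) in SOD1G86R mice, and the ranges overlapped.

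Lama3 and Lamb3, chains of an epithelial laminin, had log2 fold changes of 0.11 and 0.02 (edgeR adjusted p = 0.832 and 0.971).

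Lamc3, the gamma chain of a small group of laminins, read 3.48, 3.49, 5.71, 5.77 and 5.96 CPM in WT and 6.88, 6.43, 5.96, 6.55 and 9.12 CPM in SOD1G86R mice. Only SOD1G86R replicate 3 touched the WT range, against WT replicate 5. Its log2 fold change was 0.51 (SE 0.18, edgeR adjusted p = 0.140). Lama2, the alpha chain of the parenchymal basement membrane and of muscle, whose loss causes a congenital muscular dystrophy, read 11.9 to 15.5 CPM in WT and 13.9 to 22.0 CPM in SOD1G86R mice, a log2 fold change of 0.34 (SE 0.12, edgeR adjusted p = 0.158). The endothelial chains Lama4 and Lama5 had log2 fold changes of 0.25 and 0.24 (edgeR adjusted p = 0.426 and 0.383), Lamb1 of 0.20 (edgeR adjusted p = 0.407) and Lama1, a chain of the pia, of -0.01 (edgeR adjusted p = 0.970). None of these passed, and all overlapped between groups.

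Of the FACIT collagens, Col12a1 had the smallest p of all members. Type XII collagen coats type I fibrils, and in zebrafish it is deposited in the injured spinal cord and favours regrowth of axons. Col12a1 (ENSMUSG00000032332, chr9:79598991-79718831) read 11.2, 8.10, 9.69, 9.58 and 9.22 CPM in WT and 20.5, 15.0, 15.4, 10.1 and 19.4 CPM in SOD1G86R mice. Replicate 4 lay inside the WT range, and the other 4 SOD1G86R mice lay above all WT mice. The log2 fold change was 0.75 (SE 0.16, edgeR adjusted p = 0.0215), and without replicate 4 it was 0.88 (SE 0.11, edgeR adjusted p = 0.000201). DESeq2 gave an adjusted p of 0.000242 with all mice and limma voom 0.0442.

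Col16a1 (ENSMUSG00000040690, chr4:130047840-130099283), the other abundant FACIT chain, read 68.7, 37.3, 46.9, 48.4 and 47.2 CPM in WT and 113.6, 69.6, 83.8, 52.6 and 87.0 CPM in SOD1G86R mice. Replicate 4 again lay within WT, and WT replicate 1 was the one WT mouse above it. The log2 fold change was 0.71 (SE 0.21, edgeR adjusted p = 0.103) with all mice and 0.83 (edgeR adjusted p = 0.0180) without replicate 4. The type IX chains, which also belong to this class, were level between genotypes. Col9a2 read 12.4 ± 0.459 CPM in WT and 13.0 ± 0.865 CPM in SOD1G86R mice (SD, n = 5 each; log2 fold change 0.07, SE 0.07, edgeR adjusted p = 0.667), and Col9a3 20.3 ± 2.01 CPM and 20.5 ± 1.66 CPM (SD, n = 5 each; 0.02, edgeR adjusted p = 0.945).

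**Figure D4:**
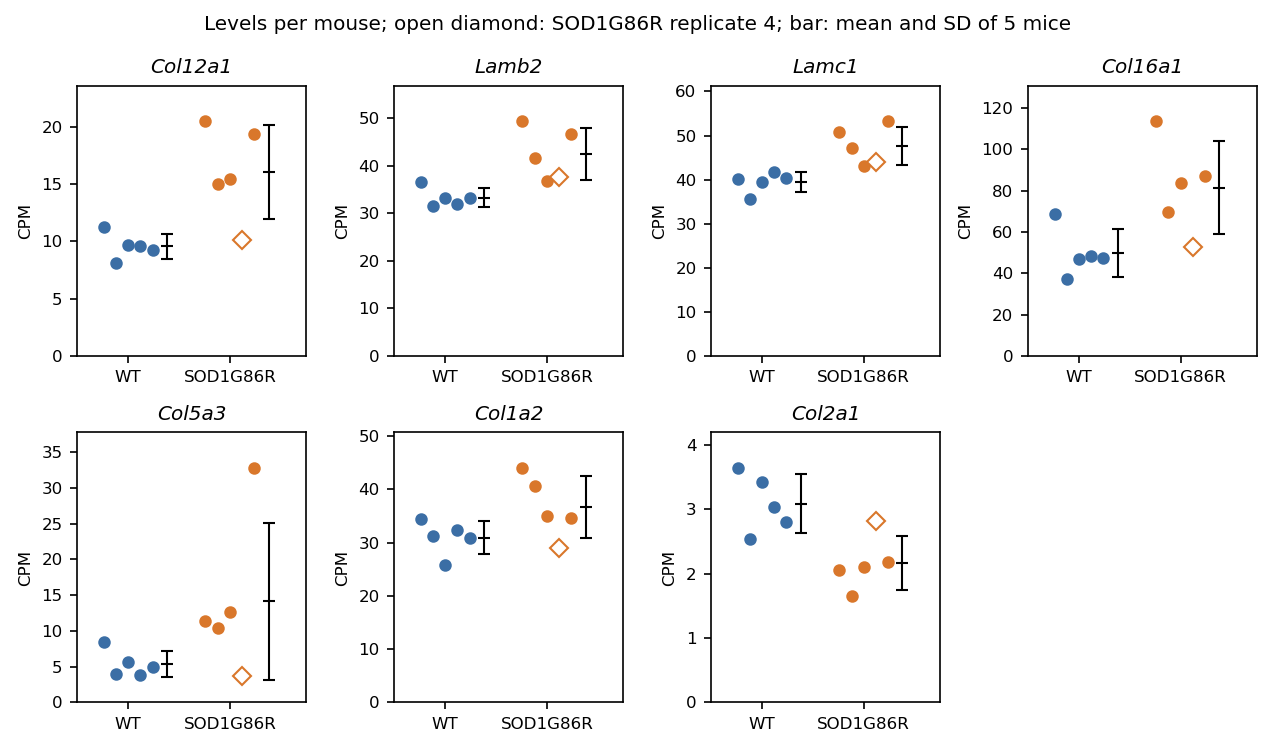
CPM per mouse (replicates 1 to 5 from left to right in each group) of 7 of the 8 genes whose groups did not overlap once SOD1G86R replicate 4, the open diamond, was left out; the bar gives the mean and SD of 5 mice. With that mouse the groups overlap in 5 of the 7, and only Col2a1 is lower in SOD1G86R mice.

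Of the 11 members higher at an unadjusted p under 0.05, replicate 4 was the lowest SOD1G86R mouse in 6 (among them Col12a1, Col16a1, Col1a2, Col4a5 and Col5a3), replicate 3 in 4 (Lama2, Lamb2, Lamc1 and Lamc3) and replicate 5 in 1 (Col4a6). That is 54.5% for replicate 4, against 64.4% of the 1833 genes higher at that level in the whole table, and over all 53 members tested it was the lowest in 15 (28.3%, against 24% of all genes). The microglial markers were lowest in replicate 4 as well, at 522 CPM, and the 18 fibroblast and meningeal markers summed to 836 CPM there against 1005 to 2193 CPM in the other SOD1G86R mice and 892 to 1076 CPM in WT. Most of that sum was Apod, a lipocalin also made by oligodendrocytes, and the 17 other markers summed to 174 CPM in replicate 4, 196 to 248 CPM in the other SOD1G86R mice and 151 to 195 CPM in WT. The part of these cells in the levels of the 6 genes was not tested.

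Fibrillar collagens gave the widest range of differences. Col5a3, a minor chain of type V collagen (ENSMUSG00000004098, chr9:20770050-20815067), read 8.42, 3.91, 5.68, 3.81 and 4.99 CPM in WT and 11.3, 10.4, 12.6, 3.66 and 32.8 CPM in SOD1G86R mice. Replicate 4 was the lowest of the 10 mice and replicate 5 by far the highest. This gave a log2 fold change of 1.41 (SE 0.52, edgeR adjusted p = 0.212) with all mice, and it ranged from 0.83 to 1.65 when 1 mouse was left out. SOD1G86R replicate 5 was also the mouse with the highest sum of fibroblast and meningeal markers, 2193 CPM, of which Apod made up 1997 CPM. The 17 other markers summed to 196 CPM in that mouse, below SOD1G86R replicates 1 to 3 (214 to 248 CPM). The part of these cells in Col5a3 was not tested. Col5a1, the main chain of type V, read 3.02 to 7.33 CPM in WT and 3.31 to 8.72 CPM in SOD1G86R mice (log2 fold change 0.43, edgeR adjusted p = 0.472).

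Col2a1 was the member with the smallest p among those lower in SOD1G86R mice. It read 3.65, 2.54, 3.43, 3.04 and 2.80 CPM in WT and 2.05, 1.66, 2.10, 2.82 and 2.18 CPM in SOD1G86R mice. Replicate 4 was the only SOD1G86R mouse inside the WT range. The log2 fold change was -0.52 (SE 0.16, edgeR adjusted p = 0.0857) with all mice and -0.63 (edgeR adjusted p = 0.0163) without replicate 4. Col11a2, the most abundant member, was lower by a small step, at 98.5, 69.5, 79.9, 76.9 and 79.8 CPM in WT and 79.5, 71.1, 67.1, 69.2 and 67.0 CPM in SOD1G86R mice. The ranges overlapped, with WT replicate 2 below SOD1G86R replicates 1 and 2, and the log2 fold change was -0.19 (SE 0.08, edgeR adjusted p = 0.257).

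The chains of type I and type III collagen, the fibres of meninges, vessel walls and scars, did not pass. Col1a2 read 25.8 to 34.4 CPM in WT and 44.1, 40.7, 34.9, 28.99 and 34.7 CPM in SOD1G86R mice. Apart from replicate 4 the SOD1G86R mice lay above WT, and the log2 fold change was 0.24 (SE 0.11, edgeR adjusted p = 0.262), or 0.32 (edgeR adjusted p = 0.0574) without replicate 4. Col1a1 had a log2 fold change of 0.20 (SE 0.20, edgeR adjusted p = 0.669). Col3a1 read 3.65 to 6.27 CPM in WT and 8.17, 13.9, 5.38, 5.51 and 4.31 CPM in SOD1G86R mice, a log2 fold change of 0.60 (SE 0.31, edgeR adjusted p = 0.358). SOD1G86R replicates 1 and 2 were the highest mice in Col3a1, and the same 2 mice held the highest sums of 6 skeletal muscle markers, 426 and 835 CPM, against 4.43 to 241 CPM in WT and 11.8 to 277 CPM in the other SOD1G86R mice. The part of adherent tissue in Col3a1 was not tested.

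The type IV collagens of basement membranes were higher by point estimate in 5 of 6 chains, against 47.7% of all genes tested, and none passed. Their genes lie in pairs that face away from each other. The starts of Col4a1 and Col4a2 are 21 bases apart on chromosome 8, those of Col4a3 and Col4a4 72 bases apart on chromosome 1, and those of Col4a5 and Col4a6 1309 bases apart on chromosome X. The last pair had the smallest p of the 6. Col4a5, an X-linked chain of kidney and other basement membranes, read 8.93, 7.05, 7.89, 8.47 and 7.94 CPM in WT and 13.1, 9.88, 8.56, 8.53 and 12.4 CPM in SOD1G86R mice. Its log2 fold change was 0.38 (SE 0.13, edgeR adjusted p = 0.126). Col4a6 read 1.47, 1.33, 1.70, 1.33 and 1.26 CPM in WT and 3.03, 2.81, 1.90, 1.65 and 1.57 CPM in SOD1G86R mice. Its log2 fold change was 0.63 (SE 0.20, edgeR adjusted p = 0.108). Both genes overlapped between groups through single mice, WT replicate 1 for Col4a5 and WT replicate 3 for Col4a6.

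The upstream sequence of this pair is shown because the genes are neighbours with the smallest p of their class. It comes from RefSeq (GRCm38.p6, where 40 of the 55 members had a promoter entry), is written 5′ to 3′ on each gene's strand, and keeps to bases in no annotated exon: chrX:141475169-141475384 on the plus strand for Col4a5 and chrX:141474077-141474326 on the minus strand for Col4a6. Capitals mark a CCAAT box (CCAAT on either strand) or a GC box (GGGCGG on either strand).
Col4a5: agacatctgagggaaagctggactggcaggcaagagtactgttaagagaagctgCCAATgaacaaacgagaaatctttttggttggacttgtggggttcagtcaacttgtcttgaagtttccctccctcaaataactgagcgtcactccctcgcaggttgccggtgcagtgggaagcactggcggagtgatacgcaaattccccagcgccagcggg
Col4a6: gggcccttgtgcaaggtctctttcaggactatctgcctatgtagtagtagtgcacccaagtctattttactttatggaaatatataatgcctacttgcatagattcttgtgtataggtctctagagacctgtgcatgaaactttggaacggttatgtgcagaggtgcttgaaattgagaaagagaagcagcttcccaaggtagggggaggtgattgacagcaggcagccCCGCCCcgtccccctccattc
The window of Col4a5 held 1 CCAAT box and that of Col4a6 held 1 GC box. Neither held a TATA box (TATAAA) or an AP-1 site (TGANTCA), both strands searched, and no 2 of the 4 motifs overlap as written. Over 32851 promoters of the same table, a window of 250 bases held the GC box in 32.7%, the CCAAT box in 33.8%, the TATA box in 12.4% and the AP-1 site in 6.75%. Over windows of 216 bases, the length shown for Col4a5, the CCAAT box was held by 30.5%.

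Col4a1 and Col4a2, which form 1 trimer, were close to the WT level. Col4a1 read 29.6 ± 5.38 CPM in WT and 34.3 ± 4.38 CPM in SOD1G86R mice (SD, n = 5 each; log2 fold change 0.21, SE 0.13, edgeR adjusted p = 0.430). Col4a2 read 38.9 ± 10.9 CPM and 37.7 ± 6.61 CPM (SD, n = 5 each; -0.04, SE 0.18, edgeR adjusted p = 0.933), and its sign turned without WT replicate 1 (0.13) or without SOD1G86R replicate 3 (0.02). Col15a1 and Col18a1, the multiplexins that carry endostatin-like domains, had log2 fold changes of 0.22 and -0.07 (edgeR adjusted p = 0.426 and 0.843).

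Of the type VI collagens, microfibrils between cells and basement membranes, 1 of 6 chains was positive, against 47.7% of all genes tested, with a median of -0.16. None passed, with edgeR adjusted p of 0.508 to 0.988. Col6a1 read 20.3, 8.16, 12.3, 11.8 and 12.9 CPM in WT and 11.8, 10.8, 8.39, 8.17 and 13.3 CPM in SOD1G86R mice. WT replicate 1 was the highest of the 10 mice and WT replicate 2 the lowest, and the log2 fold change was -0.32 (SE 0.22, edgeR adjusted p = 0.508). Col6a3 varied most between WT mice of the members tested, from 3.89 to 17.5 CPM.

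The transmembrane collagens Col23a1 and Col25a1 overlapped between groups, with a WT coefficient of variation of 18.8% and 6.92%. Col23a1 read 19.0 to 29.4 CPM in WT and 17.6 to 28.1 CPM in SOD1G86R mice (log2 fold change -0.14, SE 0.16, edgeR adjusted p = 0.705). Col25a1, a collagen of neurons that mouse motor axons need to innervate muscle, read 32.4 ± 2.24 CPM in WT and 31.1 ± 3.66 CPM in SOD1G86R mice (SD, n = 5 each). Its log2 fold change was -0.06 (SE 0.08, edgeR adjusted p = 0.757). Col25a1 lies at chr3:130131501-130599877, 6.75 Mb from Mettl14, a gene of chromosome 3 that fell in SOD1G86R mice by 1.10 on the log2 scale (edgeR adjusted p = 3.06e-07). Col11a1 and Col24a1, the other members of chromosome 3, had log2 fold changes of -0.38 and -0.33 (edgeR adjusted p = 0.580 and 0.729).

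Whether related chains, partners in a trimer or alternatives to each other, shifted against each other was read from 14 ratios of RPKM within a mouse. None passed the exact two-sided permutation test after adjustment over the 14, but with 5 against 5 mice a single ratio cannot go below an adjusted p of 0.111, so that the test could hardly be passed. The smallest p was that of Col4a1 to Col4a2, 0.691 ± 0.0922 in WT and 0.812 ± 0.0581 in SOD1G86R mice (SD, n = 5 each; exact permutation p = 0.0476, adjusted 0.444), and the ranges overlapped. Col1a1 to Col1a2 was 0.439 ± 0.0771 in WT and 0.418 ± 0.0939 in SOD1G86R mice (SD, n = 5 each; exact permutation p = 0.571). Col5a3 to Col5a1 was 1.19 to 1.93 in WT and 1.38 to 4.69 in SOD1G86R mice (exact permutation p = 0.0635, adjusted 0.444). Lamb2 stood at 7.96 ± 1.07 times Lamb1 in WT and 8.76 ± 1.29 times in SOD1G86R mice (SD, n = 5 each). Col9a1 was only 0.0470 ± 0.00779 of Col9a2 in WT (SD, n = 5), and Col6a3 ranged from 0.208 to 1.17 of Col6a2 among WT mice, more than any other ratio.

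**Figure D5:**
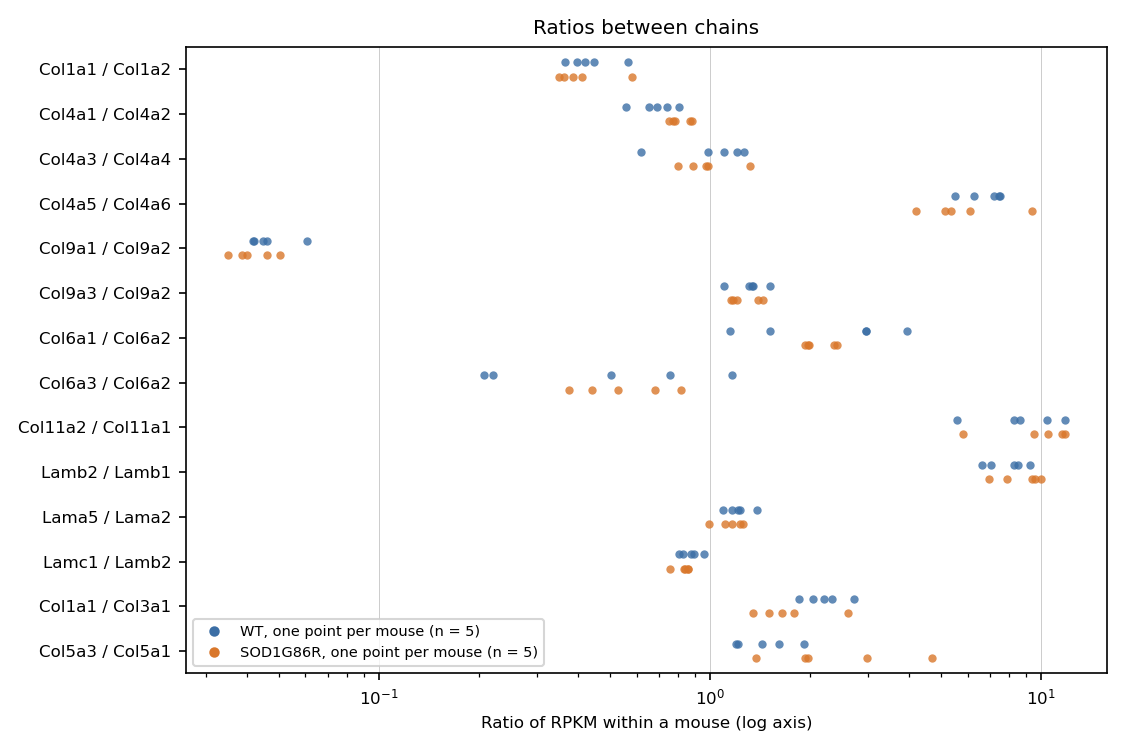
Ratio of the RPKM of 2 chains within a mouse (log axis) for 14 pairs, with WT in blue and SOD1G86R in orange, 1 point per mouse. Both groups cover the same range in most pairs, Col4a1 to Col4a2 lies between 0.559 and 0.804 in WT and between 0.753 and 0.880 in SOD1G86R mice, and Col6a3 to Col6a2 spreads widest in WT.

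Other genes of the matrix were taken from lists written from textbook knowledge. Of 23 TGF-beta pathway genes tested, 3 passed as higher: Tgfbr2 (log2 fold change 0.60), Tgfbr1 (0.74), the receptors, and the ligand Tgfb1 (0.83), with edgeR adjusted p of 0.00563, 0.00665 and 0.00668, and the median of the list was 0.23. Of 23 collagen and laminin receptors 1 passed, Lair1, an inhibitory collagen receptor of leukocytes, from 10.9 ± 0.953 CPM to 19.8 ± 4.30 CPM (SD, n = 5 each; log2 fold change 0.86, edgeR adjusted p = 0.00711). Of 37 enzymes that make and crosslink collagen 1 passed as lower, Sec24d, a coat protein of the vesicles that carry procollagen, from 14.8 ± 0.647 CPM to 7.77 ± 1.31 CPM (SD, n = 5 each; -0.93, edgeR adjusted p = 0.000470). Sec24d is a gene of chromosome 3 like Mettl14. At an unadjusted p under 0.05 edgeR had 14 TGF-beta genes, 11 receptors and 8 collagen enzymes higher, against 10.8% of all genes. It had 1, 0 and 2 lower, against 6.33%. DESeq2 called 5, 7 and 1 higher, against 4.15%, and 1 collagen enzyme lower. The calls in the TGF-beta and receptor lists were 0 by limma voom and with any 1 mouse left out other than SOD1G86R replicate 4, whereas the call among the enzymes stayed at 1 in those fits.

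Of 22 basement membrane partners 0 passed edgeR, with 5 higher at an unadjusted p under 0.05, 2 called by DESeq2 and 0 by limma voom, and the smallest p were those of Npnt (log2 fold change 0.90, edgeR adjusted p = 0.0117) and the laminin binder Nid2 (0.64, edgeR adjusted p = 0.0323). Of 21 fibrous matrix proteins 0 passed, with 7 higher at an unadjusted p under 0.05, 2 called by DESeq2 and 0 by limma voom, led by Thbs2 (0.72, edgeR adjusted p = 0.0106) and Postn (1.48, edgeR adjusted p = 0.0126). Of 17 enzymes that glycosylate dystroglycan 0 passed by any of the 3 tools, with 2 lower at an unadjusted p under 0.05, B4gat1 (-0.18) and Pomgnt1 (-0.15). Over all genes 10.8% were higher and 6.33% lower at that level. Without replicate 4 the lists had 5 of 23 TGF-beta genes, 3 of 23 receptors and 3 of 37 enzymes of collagen higher. Of the partners 2 of 22 and of the fibrous proteins 3 of 21 were higher there, against 4.55% of all genes. In that fit 1 enzyme of collagen was lower, against 0.5% of all genes, and 0 dystroglycan enzymes passed in either direction. Npnt, Thbs2 and Postn newly passed there (edgeR adjusted p = 0.000673, 0.000168 and 4.88e-05). So did, among others, Tgif1, Cd44, Itgb1, Lox, P4ha3, Loxl2, Efemp2 and Fmod. Lox, the crosslinking oxidase, read 0.669 ± 0.125 CPM in WT and 3.65 ± 2.73 CPM in SOD1G86R mice (SD, n = 5 each). Its log2 fold change was 2.44 with all mice (edgeR adjusted p = 0.0172).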

How the data were processed

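Frozen lumbar cords were extracted with Trizol. The authors deposited raw counts from HTSeq 0.6.1 on TopHat2 2.0.14 alignments to mm10 (tools and build as in the submitters' processing notes), with no scaling applied, for 32506 genes, of which 32247 matched a symbol of GENCODE M21 and 3078 had no count. Kit and strand setting were not given in the sources used here, so reads of overlapping antisense genes, such as the 22 bases shared by Col4a1 and Col4a2, cannot be separated.

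The whole table was analysed in R 4.3.3. After filterByExpr (16974 genes left) and TMM scaling, edgeR 4.0.16 compared the genotypes by its robust quasi-likelihood F test, with all 5 WT and 5 SOD1G86R mice and no covariate. P was adjusted by Benjamini and Hochberg over all genes tested, with a threshold of 0.01. DESeq2 1.42.0 and limma voom 3.58.1 were alternatives, as were other scalings and filters, a threshold of 0.05, the replicate number as a block and each mouse left out. The removal of length trends was added after seeing the data. RPKM is CPM per 1000 bases of union exon length, over every annotated exon. That length was 12426 bases for Col1a2 (1372 residues) and 6563 bases for Col1a1 (1453 residues). The order of levels and the size of chain ratios therefore depend on the annotation. Log2 values used a prior count of 2, and single values were tested by exact permutation over all assignments of the mice. On simulated data for SOD1G86R against WT, with 16974 genes, edgeR recovered 40.3, 74.6 and 95.5% of log2 changes of 0.5, 1 and 2 with 2 false calls. The changed genes were drawn from all genes tested. The members varied more between WT mice (median coefficient of variation 18.2%, against 7.67%), and recovery was not simulated for them. Where nothing says that libraries came from separate preparations, p measures the spread between these samples.

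The members, the 10 classes, 11 marker lists and 6 pathway lists were chosen with earlier results of these data known. Full statistics were given for members past the test with or without SOD1G86R replicate 4, the 12 with the smallest p, the 10 most abundant in WT, and set laminin and collagen chains. From the other lists, up to 4 genes past the test, or 2 with the smallest p, were named, and further genes are given as values. Results of 1 member are not reported here.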

Additional observations from a re-analysis of the deposited data

Results flagged for a closer look

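In each group of 5 mice the highest and lowest values of the 55 genes were compared with the rest by Dixon's limit of 0.71, over 110 groups, of which chance flags about 1 in 20. It was passed by 3. Col24a1, a fibrillar collagen of developing bone, read 8.56 CPM (251 counts) in WT replicate 1 and 2.03 to 3.82 CPM in the other WT mice. In SOD1G86R replicate 5 it read 6.11 CPM (230 counts), against 2.15 to 3.28 CPM in the other SOD1G86R mice. These were the mice in which collagens and laminins as a group were most often highest within their genotype. Col28a1, a collagen of peripheral nerve, read 1.36 CPM (42 counts) in SOD1G86R replicate 4 and 0.477 to 0.5995 CPM in the other SOD1G86R mice. Its log2 fold change fell from 0.69 (edgeR adjusted p = 0.318) to 0.31 (edgeR adjusted p = 0.573) without that mouse, in which the 12 sensory ganglion markers summed to 171 CPM against 53.1 to 80.6 CPM in the other SOD1G86R mice. The part of ganglion or nerve root tissue in Col28a1 was not tested.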

How the results depend on the processing

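Against 0 members past the edgeR test, DESeq2 and a threshold of 0.05 each gave 3, all higher. Without SOD1G86R replicate 4 DESeq2 gave 7 (6 higher and 1 lower) and limma voom 2, both higher. With 1 mouse left out the count of members past the test, and of those higher, was 0 to 3, and the 3 came only without SOD1G86R replicate 4. Over all genes, 190 passed in edgeR, 816 in DESeq2, 59 in limma voom, 298 without robust estimation and 781 at a threshold of 0.05. Without SOD1G86R replicate 4 DESeq2 gave 1235 and limma voom 798, and with 1 mouse left out edgeR gave 31 (without WT replicate 3) to 868 (without SOD1G86R replicate 4). The count of members without overlap, 2 with all mice, was 2 to 8 with 1 mouse left out, and it was 5 without WT replicate 1, 4 without SOD1G86R replicate 3 and 8 without SOD1G86R replicate 4. The cause was not tested.

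Among 25 named members, 571 fold changes under the alternatives kept their direction and side of the threshold, 18 newly passed it and 11 turned. With 1 mouse left out, Col4a2 ran from -0.15 to 0.13, Col9a3 from -0.0286 to 0.0685, Lama1 from -0.0742 to 0.0691 and Lama3 from -0.0478 to 0.30, and Lama1 was 0.00498 by limma voom without SOD1G86R replicate 4. With the replicate block 0 members passed, as without it. Mice with the same number correlated at 0.0518, 0.261, -0.138, 0.0599 and -0.37 in their deviations. These values cannot show whether mice of the same number shared a litter or a preparation. Few counts limit Col6a4, Col6a5 and Col28a1, and the wide spread between WT mice limits Col6a3 and Col24a1.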
